A study of Mus musculus with 2 samples.

Results

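The genes described here are the olfactory receptor genes that surround the beta-globin genes of the mouse. They were taken as the protein-coding genes of the GENCODE annotation of mm10 whose symbol starts with Olfr and which lie between 102 and 109 Mb of chromosome 7, and 197 of 21938 protein-coding genes met this rule. Along the chromosome the first was Olfr543 (chr7:102476579-102481679) and the last was Olfr519, whose record starts at position 108893461. Of the 197 genes, 94 lie on the plus strand and 103 on the minus strand, 173 have an annotated 5′ untranslated region, and together they have 400 annotated transcription start sites. A further 31 Olfr pseudogenes and 8 polymorphic pseudogenes of the span are not among them. The other 71 protein-coding genes of the span are 5 beta-like globin genes and 66 genes of other kinds, 13 of them Trim genes, which encode tripartite-motif proteins.

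The assay was ATAC-seq, which uses a transposase to cut and tag open chromatin, and the cells were G1E-ER4. This is a single erythroid line, labelled as male and of the C57BL/6J strain, in which GATA1, a master regulator of red cell genes, was restored and differentiation is started by estradiol. The 2 libraries, each from 50000 cells, are biological replicates 1 and 2 of 1 group, treated with 17Beta-estradiol at 10 nM for 24 hours. Untreated cells were not analysed here, so nothing below bears on the effect of estradiol, and the comparisons are between groups of genes and stretches of chromosome. The identity of the cells was checked on marker genes. In the list made by the authors from both replicates, 15 of 16 erythroid markers had an accessible region at a promoter, all but Alas2, against 2 of 15 markers of olfactory sensory neurons, Ric8b and Gng13. The share over all protein-coding genes in that list was 42.4%. Alas2 had a promoter region in a looser list of the authors, with a signal of 5.07. In the thresholded lists of replicates 1 and 2, 13 and 14 of the 16 erythroid markers had a promoter region, against 38.8% and 40% of all genes. Hbb-bt and Klf1 had none in replicate 1, Slc4a1 none in replicate 2 and Alas2 none in either. Of the olfactory markers 1 of 15 had one in each replicate, since Gng13 had none in either. Ric8b is also used outside the nose. Omp, Cnga2, Cnga4, Rtp1, Rtp2 and Stoml3, among the defining markers of those neurons, had none.

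Olfactory receptors are G protein-coupled receptors for odorants, and their genes form the largest gene family of the mouse. Each mature olfactory neuron uses a single receptor gene from a single allele, while the other receptor genes of that neuron are packed in heterochromatin. The genes nearest the globins belong to class I, the fish-like receptors, and class II genes lie farther along the same chromosome. The beta-globin genes, with the upstream enhancers of their locus control region, sit inside the class I cluster.

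Few accessible regions lay among these genes, and the sequences below show the 4 that the results turn on. The first 3 are the only regions of the conservative list, the authors' list of peaks reproducible between the replicates, that fell inside runs of Olfr genes. The fourth passed the authors' threshold in the list from pooled pseudoreplicates and not in the conservative list, and it lies closest to a receptor gene start among the intergenic regions of that list. Each line gives 201 bases centred on the peak summit, read from the plus strand of mm10 (GRCm38), with capitals on matches to the GATA letters (AGATAA or AGATAG, or else TGATAA or TGATAG) and to the CTCF letters (CCNNNAGATGGC, CCNNNAGAGGGC, CCNNNAGGTGGC or CCNNNAGGGGGC) on either strand.
Olfr544 intron, chr7:102486152-102486352: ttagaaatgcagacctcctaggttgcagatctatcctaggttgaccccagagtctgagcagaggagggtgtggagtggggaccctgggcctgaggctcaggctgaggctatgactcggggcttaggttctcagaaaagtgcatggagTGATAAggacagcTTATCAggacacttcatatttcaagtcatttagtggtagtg
near Olfr670, chr7:104950338-104950538: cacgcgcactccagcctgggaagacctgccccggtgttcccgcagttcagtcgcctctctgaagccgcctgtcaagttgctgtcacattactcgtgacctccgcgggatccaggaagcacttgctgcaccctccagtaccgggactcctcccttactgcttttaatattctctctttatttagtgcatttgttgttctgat
near Olfr688, chr7:105256777-105256977: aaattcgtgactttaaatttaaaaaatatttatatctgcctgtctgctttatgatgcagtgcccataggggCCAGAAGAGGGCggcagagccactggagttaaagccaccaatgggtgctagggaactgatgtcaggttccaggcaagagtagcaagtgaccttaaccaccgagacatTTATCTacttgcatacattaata
near Olfr633, chr7:103942829-103943029: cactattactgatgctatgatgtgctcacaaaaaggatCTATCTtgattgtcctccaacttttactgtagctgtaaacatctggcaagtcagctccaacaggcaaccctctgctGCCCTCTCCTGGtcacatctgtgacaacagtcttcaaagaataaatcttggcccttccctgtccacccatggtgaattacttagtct
The Olfr544 window holds 2 GATA matches that face each other, and all of its 50-base words were unique in the genome. The Olfr670 window holds no match of either kind. It has a GC share of 54.2% and a CpG observed/expected ratio of 0.708, and 69.1% of its 50-base words were unique. The windows near Olfr688 and Olfr633 each hold 1 GATA match and 1 CTCF match. A match is a description of the letters and not evidence of binding.

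No promoter of the 197 Olfr genes was accessible in the conservative list. A promoter region was any region within 1 kb of any start site, and the count was 0 of 197 (0%, 95% Wilson interval 0 to 1.91%), against 42.4% of all 21938 protein-coding genes in the same list. The same count was 0 of 197 in the list from pooled pseudoreplicates, where 42.7% of all genes were called. The thresholded list of replicate 1 alone gave 0 of 197 against 38.8% of all genes, and that of replicate 2 alone gave 0 of 197 against 40%. The intervals cover counting error only, and no test was made, since the genes are not replicates and the study has 1 group of 2 libraries.

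Of the 66 other genes of the span, 28 had a promoter region in the conservative list (42.4%, 31.2 to 54.4%), the same share as over all genes (42.4%). The gap is the longest stretch without Olfr genes that divides these genes (chr7:105369356-106675004), and 15 of its 21 genes had a promoter region. Between the first and last Olfr gene but outside the gap, the count was 4 of 30 genes (Trim21, Trim68, Trim34a and Trim12c). Before the first or after the last Olfr gene it was 9 of 15. The 30 genes are not all interspersed singly with receptors. Those from Trim6 to Trim30d and those from Nlrp14 to Ovch2 stand in blocks without Olfr genes, and the second block had no promoter region. In the replicates, 39.4% and 37.9% of the 66 other genes had a promoter region (mean 38.6% ± 1.07, SD, n = 2). Trim21, an antibody receptor of the cytosol, had the largest promoter signal, with 24.25 in replicate 1, 24.59 in replicate 2 and 27.92 in the conservative list, in the authors' enrichment units. Trim68, another gene of the family, had 16.86 and 16.21 in the replicates and 19.37 in the conservative list. Both lie between Olfr genes, Trim21 between Olfr549 and Olfr550 and Trim68 between Olfr556 and Olfr557. The other genes with the 15 largest promoter signals in the conservative list were Taf10 (18.89), a subunit of TFIID and SAGA, Eif3f (18.49), a translation initiation factor, Trim34a (18.20), Trim12c (18.14), Nup98 and Pgap2 (17.67, 1 shared region), Mrpl17 (16.81), Fam160a2 (16.29), Smpd1 (16.05) and Tpp1 (15.92), and Arfip2, Timm10b and Gm45799 (17.79, 1 shared region). In all, 5 of the 13 Trim genes had a promoter region. Among the globin genes, Hbb-bs, an adult beta-globin gene, had 10.06 in replicate 1 and 8.57 in replicate 2. In the conservative list 2 of the 5 globin genes had a promoter region, Hbb-bs (9.69) and Hbb-bt (6.61). Hbb-bt had 7.015 in replicate 2 and was not called in the thresholded list of replicate 1.

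**Figure D1:**
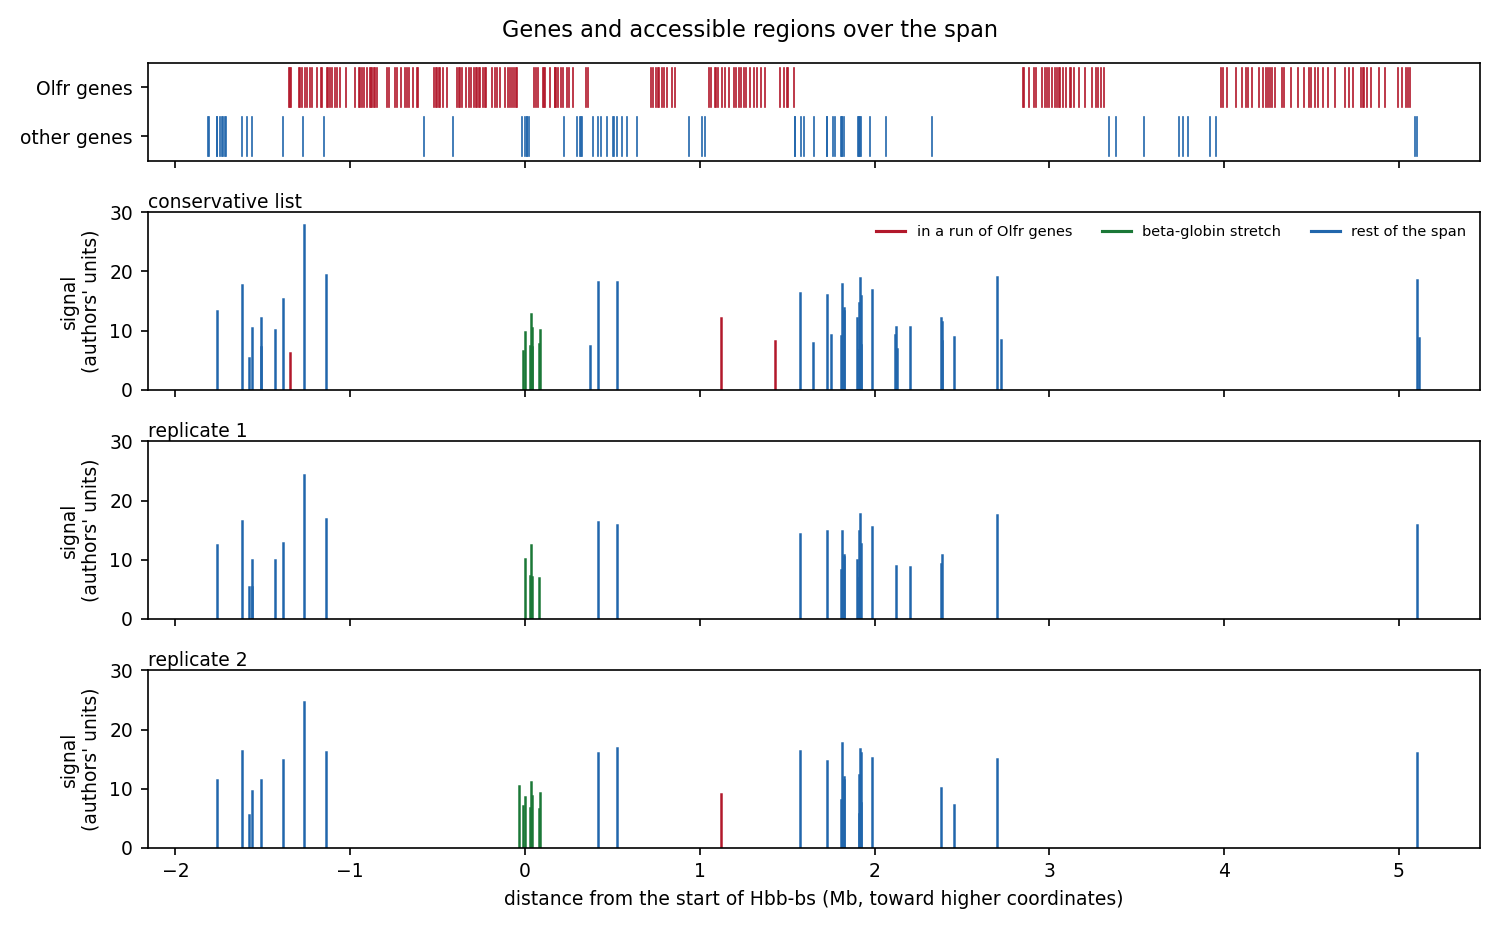
Positions of genes (top) and of accessible regions in 3 peak lists, against the distance in Mb from the start of Hbb-bs; the height of a line is the authors' signal. The row of other genes includes the globins. The replicate rows show the thresholded list of each. Olfr runs hold 3 regions in the conservative list, none in the thresholded list of replicate 1 and 1 in that of replicate 2. Of the 8 conservative regions of the beta-globin stretch, 4 appear in both thresholded lists and 4 in 1 of them.

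Receptor genes elsewhere also gave low counts. Of 938 Olfr genes outside the span, 3 had a promoter region in the conservative list (0.32%, 0.109 to 0.936%), as had 1 of 331 vomeronasal receptor genes and 0 of 15 trace amine receptor genes. The 3 were Olfr56 (signal 10.16), Olfr763 (12.64) and Olfr9 (11.03). The summit at Olfr56 was 0.236 kb from the start of Ifi47, an interferon-induced GTPase, and the summits at Olfr763 and Olfr9 were 50.7 and 29.3 kb from the nearest start of another kind of gene.

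**Figure D2:**
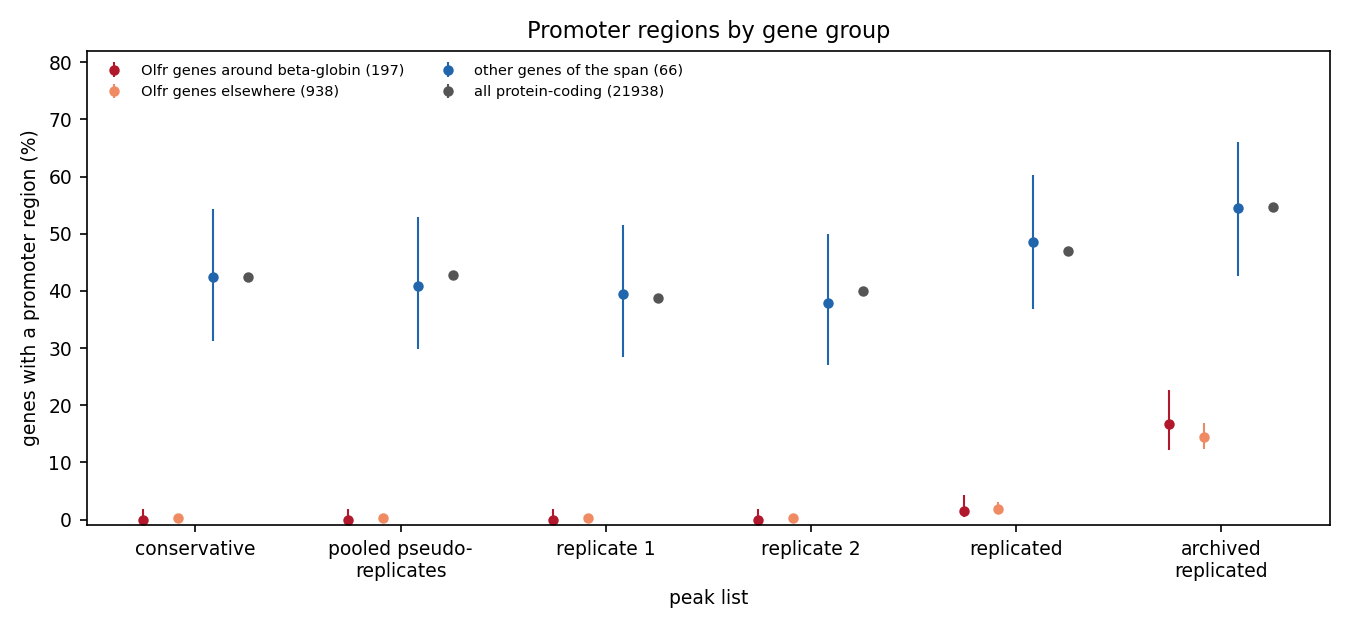
Share of genes with a region within 1 kb of a start site in 6 peak lists, with 95% Wilson intervals. The Olfr genes around beta-globin stand at 0% in 4 lists, at 1.52% in the replicated list and at 16.8% in the archived list, below the other genes of the span in each.

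Weaker peaks did lie within 1 kb of some Olfr start sites. The replicated list, a looser list of the authors, held a promoter region for 3 of 197 genes (1.52%), against 47% of all genes. These were Olfr68, with a signal of 4.78, Olfr646, with 4.46, and Olfr707, with 4.14. The regions at Olfr68 and Olfr707 lay in exons and that at Olfr646 in an intron of Olfr643. In the windows at Olfr68 and Olfr707, 58.6% and 0% of the 50-base words were unique. The archived list, the largest, held one for 33 of 197 genes (16.8%, 12.2 to 22.6%), against 54.7% of all genes and 14.5% of Olfr genes elsewhere. The counts were 23 of 129 genes before the gap and 10 of 68 after it. In 28 of the 33 genes no other list held a promoter region, and 164 of the 197 genes had one in no list. The last counts, which join all lists, were not made over all genes and are a description only.

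The Olfr promoter peaks in the archived list were low. Their signals took 7 distinct values between 2.61 and 5.23, with a median of 3.14, against a median of 14.1 in 36 other genes of the span and 13.1 in the 12011 genes called in that list. The highest, at 5.23, were Olfr68, Olfr545 and Olfr557, followed by Olfr575 at 4.70 and by Olfr548-ps1 and Olfr588-ps1 at 4.18, which are annotated as protein-coding despite their names. Olfr612, Olfr632, Olfr646, Olfr473, Olfr1532-ps1 and Olfr64 stood at 3.66, Olfr543 at 3.53, and the other 20 at 3.14 or 2.61. Some of these regions lay in exons, among them those at Olfr68, Olfr545, Olfr588-ps1 and Olfr612, and others in introns or between genes.

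No promoter region of these genes was called in the own lists of both libraries. In the pseudoreplicated list of replicate 1, 3 of 197 genes had a promoter region, against 45.1% of all genes. They were Olfr543 with 3.69, Olfr557 with 4.88 and Olfr68 with 5.37. In that of replicate 2 the count was 0 of 197, against 45.6% of all genes. The mean over the replicates was 0.761% ± 1.08 (SD, n = 2) for the Olfr genes and 44.7% ± 1.07 for the other genes of the span.

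A few receptors picked for their known roles also had no promoter region in the conservative list. Olfr544, a receptor for azelaic acid that is also active outside the nose, had no promoter region in any list, although the intron region shown above lay 1.77 kb from its start. Olfr78 and Olfr558, receptors for short-chain fatty acids that are also used outside the nose, had none in any list, and their starts were 58.6 and 14.7 kb from the nearest conservative region. Olfr2, the octanal receptor I7, had none either. Olfr17, the P2 receptor used in classic studies of axon targeting, had one only in the archived list, with a signal of 3.14.

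The density of accessible regions was low over the Olfr runs as a whole. A run is a stretch of consecutive protein-coding genes, in order of record start, that are all Olfr. The span holds 12 runs with 192 of the 197 genes, 3.554 Mb in all once the overlap of 1 pair is counted once. The long record of Olfr643 also covers 4930516K23Rik and Ubqln5, so its run includes these genes of other kinds. The beta-globin stretch (103.79 to 103.93 Mb of chromosome 7, 140 kb) was left out of the runs. In the conservative list the runs held 3 regions, or 0.844 per Mb (95% exact Poisson interval 0.174 to 2.47), against 8 regions, or 57.1 per Mb (24.7 to 113), in the beta-globin stretch. The ratio of the Olfr runs to the beta-globin stretch was 0.0148. The rest of the span held 40 regions, or 12.1 per Mb (8.64 to 16.5), and the genome 7.58 per Mb. Olfr runs elsewhere held 16 regions in 22.68 Mb, or 0.706 per Mb.

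In each replicate the Olfr runs had a lower density than the beta-globin stretch, the rest of the span and the genome. In the thresholded lists, replicate 1 had no region in the Olfr runs and replicate 2 had 1, or 0.141 ± 0.199 per Mb (SD, n = 2). The beta-globin stretch had 35.7 per Mb in replicate 1 and 57.1 per Mb in replicate 2 (46.4 ± 15.2). The values for the rest of the span were 8.77 and 7.86 per Mb, and those for the genome 5.29 and 5.88 per Mb. Olfr runs elsewhere had 0.397 and 0.485 per Mb, above the Olfr runs of the span in both replicates, while in the conservative list they were below them. With the looser pseudoreplicated lists, the Olfr runs had 8 regions in each replicate, of which 4 overlapped between replicates by at least 50% of the shorter region. The beta-globin stretch had 10 and 12, of which 10 overlapped. The rest of the span had 61 in each replicate, of which 53 in replicate 1 and 52 in replicate 2 overlapped. Sharing over the whole genome was not counted. The archived list held 79 regions in the Olfr runs, or 22.2 per Mb, against 214 per Mb in the beta-globin stretch and 59.6 per Mb in the genome.

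**Figure D3:**
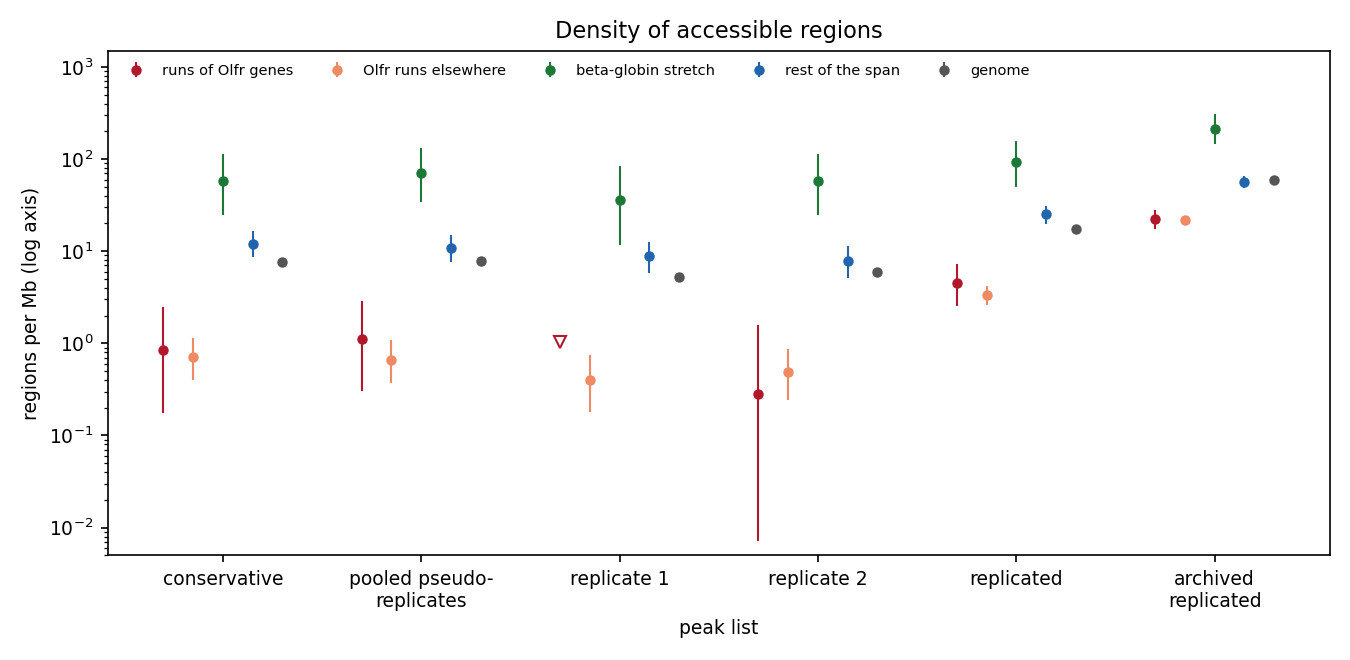
Regions per Mb, on a log axis, in 6 peak lists, with exact 95% Poisson intervals. The open triangle marks the upper bound where the thresholded list of replicate 1 had no region. The Olfr runs of the span stand at 0.844 per Mb in the conservative list, beside 0.706 per Mb in Olfr runs elsewhere, 57.1 in the beta-globin stretch and 7.58 in the genome.

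Of the 12 runs, 10 held no conservative region, and these have 162 of the genes. The largest run, of 42 genes from Olfr467 to Olfr519, covers 1082 kb and held none, with 12 regions in the archived list. The run from Olfr557 to Olfr594, with 31 genes in 526.4 kb, held none and had 7 archived regions. The run from Olfr543 to Olfr549, which borders Rrm1, a gene with a promoter signal of 15.33, held 1 conservative and 9 archived regions in 79.26 kb. The run from Olfr665 to Olfr692 held the other 2 conservative regions. Elsewhere in the genome, 37 of 43 Olfr runs with at least 5 genes held none, as did 8 of the 10 such runs of the span.

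All 3 regions inside the runs passed the authors' comparison between the replicates. They differed in whether the own ranked list of each library also held them. Absence from an own list does not show that the library lacked the peak. The region at chr7:104950294-104950546, 10.3 kb downstream of the start of Olfr670, had a signal of 12.11 in the conservative list, and 9.76 in replicate 1 and 9.10 in replicate 2. It was the only one of the 3 in the own ranked lists of both replicates, and its signal stood at the 61.5 percentile of the conservative list. In its window, 69.1% of the 50-base words were unique. The region at chr7:102486095-102486545, in an intron of Olfr544, had a signal of 6.26. It stood at 5.91 in the own list of replicate 1 and was absent from that of replicate 2. The region at chr7:105256756-105256986, whose summit lay at −31.2 kb from the start of Olfr688, had a signal of 8.29. It stood at 7.18 in the own list of replicate 2 and was absent from that of replicate 1. The Olfr544 region stood at the 9.74 percentile of the conservative list and the Olfr688 region at the 27.5 percentile. All 8 regions of the beta-globin stretch were present in the ranked lists of both replicates.

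The pooled list kept the regions near Olfr670 and Olfr688 and lacked the one in Olfr544. It added a region at −7.46 kb from the start of Olfr545 (chr7:102506901-102507153), with a signal of 9.56, and the one at −1.51 kb from the start of Olfr633 (chr7:103942826-103943099), with a signal of 7.84. In the own lists of the replicates, the Olfr545 region had signals of 5.86 and 9.10 and the Olfr633 region 7.37 and 4.83, so each was in both. On the irreproducible discovery rate (IDR) between the replicates, which falls as −log10 IDR grows and is cut at 0.05 in the conservative list, their −log10 IDR was 0.970 at Olfr545 and 0.536 at Olfr633, beside 2.517 at Olfr670, 1.501 at Olfr688 and 1.456 at Olfr544.

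The looser replicated list held 16 regions in the runs, 4.5 per Mb, against 17.5 per Mb in the genome. Beside those already given, Olfr713 had a region 9.89 kb downstream of its start with a signal of 8.29. Of the replicates' own lists, only that of replicate 1 held it. Introns of Olfr701 and of Olfr2 had signals of 6.38 and 5.74, and of the own lists only that of replicate 2 held both. A region at −2.31 kb from the start of Olfr571 had 7.33 and was called in neither replicate's own list. Exons of Olfr69, Olfr68, Olfr544, Olfr707 and Olfr711 had signals between 3.83 and 6.70, and the regions nearest Olfr646 and Olfr514 had 4.46 and 4.14.

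Several of these exon regions lie in near copies, where a short read cannot be placed with certainty. Of the 16 windows, 11 were made of 50-base words found once in the genome, and in 4 fewer than 60% of the words were unique. The share was 0% at Olfr707, 3.95% at Olfr544, 32.9% at Olfr69 and 58.6% at Olfr68. The windows in the exons of Olfr69 and Olfr68, neighbouring genes just before the beta-globin stretch, are shown because they carry the same letters at different places.
Olfr69 exon, chr7:103767621-103767821: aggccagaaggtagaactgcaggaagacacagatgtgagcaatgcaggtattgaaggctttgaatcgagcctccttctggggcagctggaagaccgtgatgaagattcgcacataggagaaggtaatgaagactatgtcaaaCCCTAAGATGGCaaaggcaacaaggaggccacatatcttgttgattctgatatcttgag
Olfr68 exon, chr7:103777620-103777820: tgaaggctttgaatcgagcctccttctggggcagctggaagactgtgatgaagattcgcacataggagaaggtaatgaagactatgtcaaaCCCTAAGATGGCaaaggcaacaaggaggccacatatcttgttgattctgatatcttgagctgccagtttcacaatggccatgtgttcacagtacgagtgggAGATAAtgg
Set side by side, 149 of 150 bases of these windows were identical, including the CTCF match in capitals, and the Olfr68 window ends with a GATA match that the Olfr69 window does not reach. Part of the values of these genes may therefore belong to the other copy, which could not be checked without the reads.

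Matches to the CTCF letters stood in 7 of the 16 windows (43.8%), against 12.1% of all 46345 windows of the replicated list. The 7 were those at Olfr69, Olfr68, Olfr633, Olfr688, Olfr701, Olfr713 and Olfr514, of which the first pair share their sequence. These letters were chosen after some windows had been read. With the letters first used, CCNNNAGGNGGC, which match a partly different set of sites, the count was 4 of 16 (25%) against 7.46%. GATA letters stood in 7 of 16 (43.8%) against 41.8% of all windows. The longer E-box and GATA letters (CTGNNNNNNNNAGATAA or CTGNNNNNNNAGATAA, which overlap the GATA letters) stood in 0 of 16 against 3.19%, and the letters of the olfactory factor site O/E (TCCCNNGGGA) in 0 of 16 against 0.475%. Counts this small are a description only.

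Most of the Olfr genes lay far from any region of the conservative list. Distances were measured to that list only, and the archived list held a region within 1 kb of 33 of the 197 genes. The median distance from a start site to the nearest conservative region was 233 kb, against 17.8 kb for the other genes of the span and 9.13 kb for all genes. For Olfr genes elsewhere it was 278 kb. In 135 of the 197 genes (68.5%) it exceeded 100 kb, against 24.9% of all genes. The median was 122 kb in the 129 genes before the gap and 437 kb in the 68 after it. The nearest were Olfr544 at 1.77 kb, Olfr65 at 3.71 kb, Olfr649 at 3.93 kb, Olfr543 at 4.42 kb and Olfr550 at 5.57 kb. For Olfr550 the nearest region was the promoter of Trim21. The farthest were Olfr467 at 1119 kb, Olfr469 at 1109 kb and Olfr470 at 1087 kb.

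**Figure D4:**
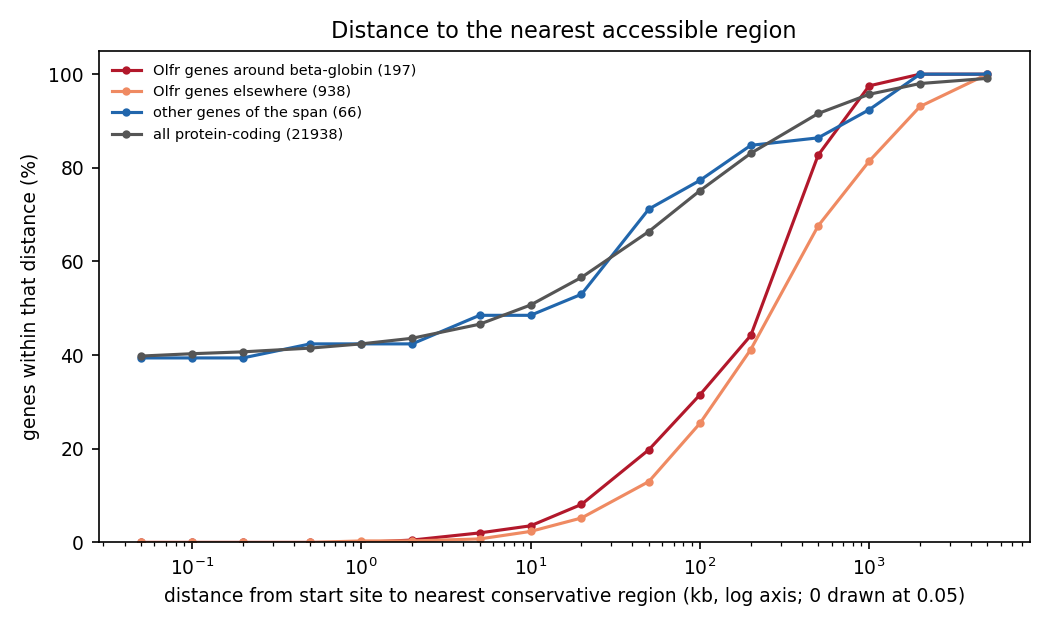
Cumulative share of genes against the distance from a start site to the nearest conservative region, in kb on a log axis. The curve of the Olfr genes around beta-globin starts at 0% and has a median of 233 kb, beside 278 kb for Olfr genes elsewhere and 9.13 kb for all genes, a large share of which start at 0 kb.

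Long intervals without any conservative region cover most of these genes. The longest in the span ran for 2382 kb (chr7:106551594-108934042), which placed it at rank 153 of 20059 intervals in the genome, where the median was 23.0 kb. It holds 68 of the Olfr genes and 9 others, among them Syt9, Ppfibp2 and Cyb5r2, and the replicated and archived lists have 9 and 51 regions in it. The next ran for 1126 kb (chr7:102687551-103813354, rank 506) from the promoter of Trim68 to the globin genes, with 64 Olfr genes and 2 Usp17l genes. Intervals above 1 Mb made up 2.83% of all.

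Of the Olfr genes, 5 have start sites inside the beta-globin stretch, where regions are dense. These are Olfr67, Olfr66, Olfr64, Olfr65 and Olfr631, and none had a promoter region in the conservative list. The archived list held one at Olfr64 (3.66) and at Olfr65 (3.14), and none at Olfr67, Olfr66 or Olfr631. Just outside the 1 kb window of Olfr67, the thresholded list of replicate 2 had a region with a signal of 10.53 (chr7:103792999-103793396). Neither the conservative list nor the thresholded list of replicate 1 held it. Their distances to the nearest conservative region were 21.5 kb for Olfr67, 11.2 kb for Olfr66, 15.6 kb for Olfr64, 3.71 kb for Olfr65 and 15.3 kb for Olfr631. Without these 5 genes the counts were 0 of 192 in the conservative list and 31 of 192 (16.1%) in the archived list.

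The sequence around the starts of the Olfr genes differed from that of most genes. Within 1 kb of the start sites the median CpG observed/expected ratio was 0.134, with a range of 0 to 0.311, against 0.426 over all genes. The median GC share was 38.9% against 50.2%. The genes before the gap had a median ratio of 0.15 and those after it 0.105. Among other genes that fell in the same CpG range, leaving out receptor genes, 514 of 6282 had a promoter region (8.18%), and among the other genes of the span these were 8 of 40, against 20 of 26 with a higher ratio. The globin genes, at 0.0817 to 0.122, are in that range too. The part of CpG content in the Olfr counts was not tested.

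Most sequence around the starts was unique, though less so than for all genes. The median share of unique 50-base words was 96.7% for the Olfr genes (lower quartile 89.8%, lowest 43.2%). For all genes it was 99.5% (lower quartile 96.3%, lowest 0%). At least 95% unique words were found for 116 of the 197 Olfr genes and for 17406 of the 21938 genes. Of those 116 Olfr genes, 0 had a promoter region in the conservative list, against 47.1% of the 17406 genes. The part of repeated sequence in the Olfr counts was not tested. Over whole stretches the unique share was 82.7% in the Olfr runs, 83.8% in the beta-globin stretch and 76.3% in the rest of the span. The GC share was 38.9% in the runs and 39% in the beta-globin stretch, and soft-masked repeats covered 45% of the runs and 37.2% of that stretch.

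**Figure D5:**
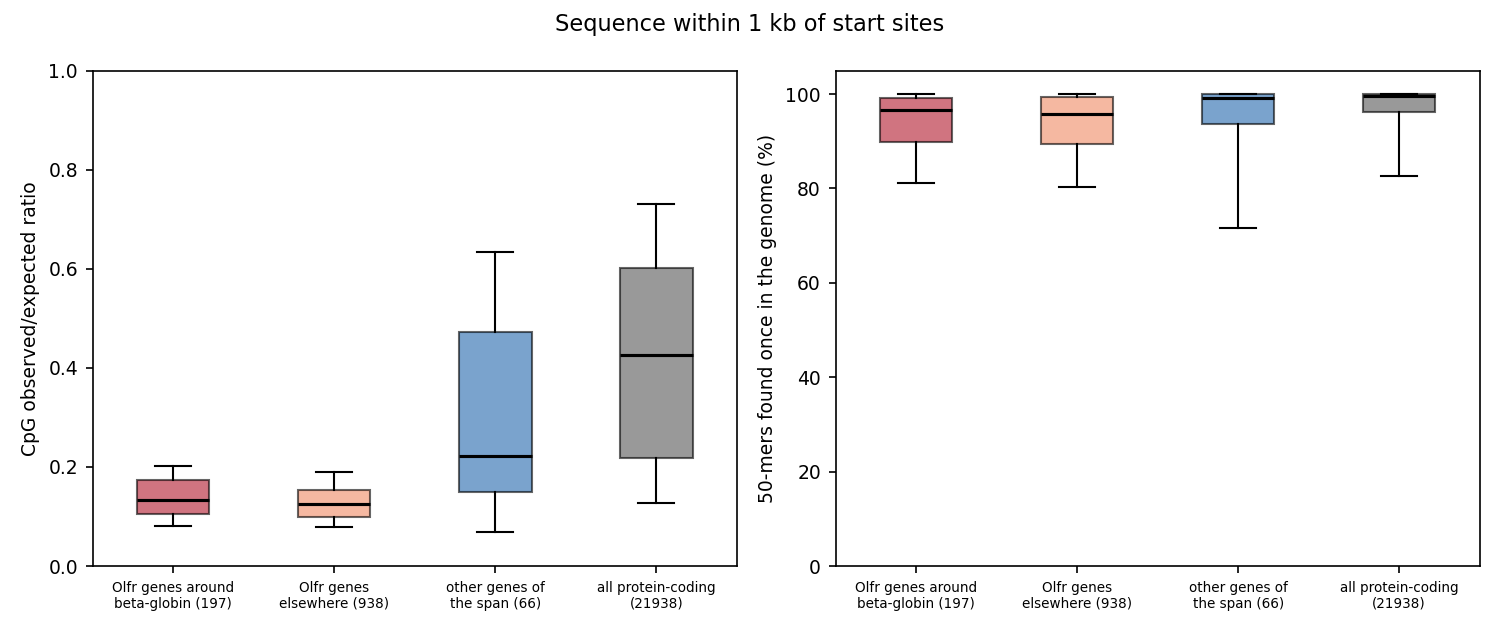
CpG observed/expected ratio (left) and share of unique 50-base words (right) within 1 kb of start sites; boxes give the quartiles and median, whiskers the 10th and 90th percentiles. The median CpG ratio is 0.134 in the Olfr genes around beta-globin and 0.426 in all genes, and the median unique share is 96.7% and 99.5%.

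Promoter sequences from RefSeq on GRCm38.p6, with 250 bases before and 50 after each start, were found for 168 of the 197 genes. GATA letters stood in 95 of them (56.5%), against 29.8% of all 32851 promoters. Homeodomain letters (TAATTA or TAATGA), like those of sites for LHX2 and other regulators of receptor choice, stood in 61 (36.3%), against 13.9%. CTCF letters stood in 2 (1.19%), against 3.36%, and O/E letters in 1 (0.595%), against 0.904%. The lower GC share of the Olfr promoters moves with the AT-rich letters, and its part was not tested.

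Of 18 genes known to act in receptor choice or in the heterochromatin of receptor genes, 8 had a promoter region in the conservative list (44.4%), a share near the 42.4% of all genes. They were Ldb1 (8.44), whose product binds LHX2 at receptor enhancers in neurons and GATA1 complexes in red cells, Ebf1 (18.17), Atf5 (12.89), Kdm1a (12.86), which encodes the demethylase LSD1, Lbr (14.27), the lamin B receptor, Ehmt1 (13.45), Cbx5 (13.10), which encodes HP1 alpha, and Nfia (16.39). Each was called in both replicates. Lhx2, Emx2, Ebf2, Ebf3, Ebf4, Adcy3, Dnmt3a and Nfib had none in that list or in the replicated list, and Ehmt2 and Nfix had one only in the replicated list.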

How the data were processed

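ATAC-seq peak lists of 2 libraries were read as deposited, on mm10 per the labels. The aligner and caller, and how reads were filtered and shifted, were not given in the sources used here. The authors' deposited notes name lists from each library, from pseudoreplicates, from pooled libraries and from the replicates compared by irreproducible discovery rate (IDR). Signal is the authors' enrichment value per peak, on a scale that is not stated, and served only to describe or rank peaks. The deposited −log10 p and −log10 IDR values were used to describe peaks, and all 29337 peaks of the conservative list were found in the authors' ranked list with IDR below 0.05. Read depth is unknown. The thresholded lists gave 14012 merged regions in replicate 1 and 15564 in replicate 2, against 20080 in the conservative list. In all, 11 lists were used.

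Overlapping peaks were merged, and the strongest summit stood for a region. Genes came from GENCODE M21. Promoters were 1 kb either side of any start site. Shares carry 95% Wilson intervals and densities exact Poisson intervals, which cover counting error only. The labels do not say whether the replicates came from separate cultures. Regions shared by replicates overlapped by 50% of the shorter one. Unique words were 50-base words found once in GRCm38 on either strand. Motif matches were counted on both strands in 201-base windows. Python 3.11.15, NumPy 2.4.6, SciPy 1.17.1 and Matplotlib 3.10.9 were used. Calls and word counts were tested on simulated data.

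Genes named are Olfr genes with the largest promoter signals in any list (up to 15, ties given together), the 5 nearest to and 3 farthest from a conservative region, those in the beta-globin stretch, the first and last, members nearest to regions in the runs, the 15 other genes of the span with the largest promoter signal, and fixed lists. A few receptors were added for their known roles, and that choice was not exhaustive. The genes and lists were chosen with earlier results of these data known.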

Additional observations from a re-analysis of the deposited data

How the results depend on the processing

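The count of Olfr genes with a promoter region stayed at 0 of 197 with the pooled list, each replicate alone, a 500 bp window, gene record starts, a summit within 1 kb and regions above the median signal. It was 3 in the replicated list, 33 in the archived list and 1 with a window of 2.5 kb. The density in the Olfr runs, 0.844 per Mb, was 22.2 in the archived list, 4.5 in the replicated list, 1.13 in the pooled list, 1.54 over gene bodies extended by 10 kb, 6.27 over the whole span outside the beta-globin stretch, 0.281 for regions above the median signal and 0 to 0.281 without 1 replicate. Its ratio to the beta-globin stretch, 0.0148, was 0.104 in the archived list, 0.0485 in the replicated list, 0.00985 with each peak counted, 0.0269 over extended gene bodies, 0.11 over the whole span, 0.0394 above the median signal and 0 to 0.00492 without 1 replicate. It stayed below 1 under each of these. The share of other span genes, 42.4%, was 54.5% in the archived list, 48.5% in the replicated list, 40.9% in the pooled list and with gene record starts, 34.8% above the median signal and 37.9 to 39.4% without 1 replicate. The number of thresholded regions in the runs shared by the replicates, 0, could take no other value at any overlap, since replicate 1 had none. The cause of these shifts was not tested.

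Most settings change which peaks are listed, and the runs hold 3 conservative regions, so each density rests on a few peaks. Without read counts, a promoter with no listed peak cannot be told apart from one below the authors' threshold. Near copies limit the placing of reads in receptor exons, and in the intergenic window near Olfr670 69.1% of the 50-base words were unique. There were no untreated cells, so no change was measured. No paired analysis was possible because the 2 libraries form 1 group.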
